A study of Mus musculus with 6 samples.

Results

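The receptors through which natural killer (NK) cells recognise their targets were examined in 6 subcutaneous CT26 tumors. The members were 10 genes chosen by symbol, out of 23122 genes in the deposited count table: Ncr1, Klrk1, Klrb1c, Klrd1, Klrc1, Klrc2, Klra3, Klra7, Klrg1 and Klre1. CT26 is a murine colorectal carcinoma line, injected here under the skin of female BALB/c mice aged 6 to 8 weeks. The tumors came from mice given TP-18 at 50 mg/kg by mouth once a day for 3 weeks, or from mice given vehicle, with 3 tumors in each group. TP-18 blocks the prostaglandin E2 receptors EP2 and EP4, according to the title of the series. Every mouse carried the same tumor line, and the labels name no other agent.

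Whole tumors were sequenced, so a difference in a transcript can come from the number of cells that carry it or from its level in each cell, and these cannot be told apart here. Whether each sample is a separate mouse is not stated, so p-values measure only how far these samples spread, which may be technical. Total counts were 35347034 to 36489081 in TP-18 libraries and 34813482 to 35163739 in vehicle libraries. Of 7 epithelial markers 3 were tested. Krt20 had 6838 to 8221 reads in TP-18 tumors and 8406 to 12016 in vehicle tumors, and fell by 0.60 ± 0.12 on the log2 scale (± SE; adjusted p = 0.0204 by edgeR), a call lost without TP-18 1, TP-18 3 or vehicle 2. Krt18 measured 5.84 ± 1.76 CPM in TP-18 tumors and 10.63 ± 2.24 CPM in vehicle tumors (SD, n = 3 each; CPM are counts scaled to library size with TMM factors; adjusted p = 0.0649 by edgeR), and Cdh1 4.09 ± 0.80 CPM in TP-18 tumors and 1.85 ± 0.71 CPM in vehicle tumors (adjusted p = 0.0647), so the tested markers did not share a direction. Epcam had 7, 8 and 24 reads in TP-18 tumors and 0, 0 and 2 in vehicle tumors, and Krt8, Vil1 and Cdx2 stayed at or under 23 reads in every library.

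NK cells are innate lymphocytes that kill without prior sensitisation, and they weigh signals from activating receptors against signals from inhibitory receptors that bind MHC class I molecules. Most of these receptors are C-type lectins encoded side by side in the NK gene complex, while NKp46 belongs to the immunoglobulin family and is encoded elsewhere. Several of them are also carried by CD8 T cells and other lymphocytes, so their transcripts are not a count of NK cells. In the mouse reference build GRCm38.p6, 9 of the 10 members lie on chromosome 6 and Ncr1 lies on chromosome 7. The complex differs between mouse strains, and the reference comes from C57BL/6J mice. BALB/c mice carry a smaller Ly49 cluster, and the antibody against NK1.1 that is used in C57BL/6 mice does not stain BALB/c cells. Reads from BALB/c alleles were therefore counted on genes of another strain.

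In the comparison of TP-18 with vehicle, which asks how the tumor transcriptome differs after treatment, all 10 receptors had more reads in each of the TP-18 tumors than in the highest of the vehicle tumors. Groups did not overlap in that direction for 18% of the 14189 tested genes. Together the 10 genes held 2803, 2655 and 2541 reads in the TP-18 tumors, against 549, 489 and 660 reads in the vehicle tumors. The quasi-likelihood test of edgeR was used, with p-values adjusted by Benjamini-Hochberg over all tested genes. It called 9 of the 10 members higher, where 7.09% of all tested genes were called higher. Klrg1 was higher as well but was not called. Genes counted below as having risen or fallen are those called at an adjusted p under 0.05. Klrc2 entered the test through its TP-18 libraries alone, because its reads were under the filter in all 3 vehicle libraries, while the other 9 passed the filter in both groups. The median log2 change of the members was 2.10, beside -0.01 for all tested genes. A log2 change of at least 2 was seen in 6 of the 10, and in 2.18% of tested genes.

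**Figure D1:**
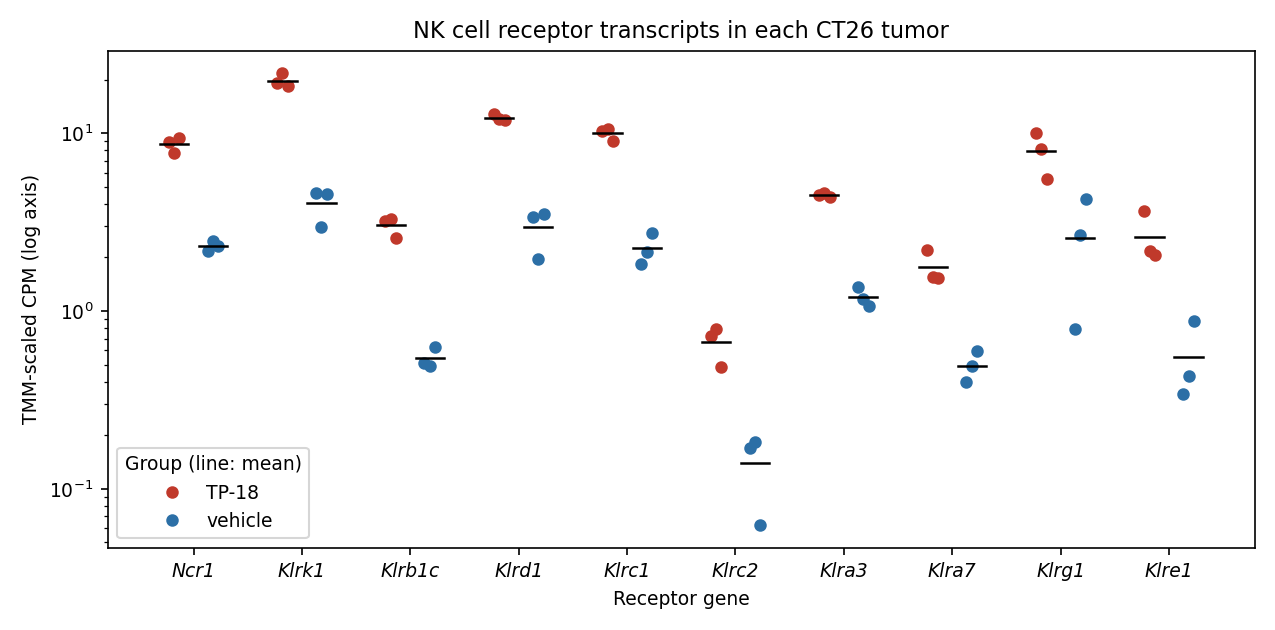
Level of each NK cell receptor transcript in every tumor, as TMM-scaled CPM on a log axis, with TP-18 tumors in red and vehicle tumors in blue; each point is a tumor and each line a group mean (n = 3). The groups do not overlap for any of the 10 genes, and the gap between them is narrowest for Klrg1, where the vehicle points spread from 0.797 to 4.25 CPM.

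Ncr1 (Entrez 17086, chromosome 7, 4337715 to 4345184) encodes NKp46, an activating receptor that in mice is carried almost only by NK cells and related innate lymphoid cells. It had 334, 283 and 365 reads in the TP-18 tumors, against 76, 81 and 74 reads in the vehicle tumors. Both groups were tight, with means of 8.69 ± 0.84 CPM in TP-18 tumors and 2.32 ± 0.16 CPM in vehicle tumors (SD, n = 3 each). Ncr1 thus rose 3.75-fold, or by 1.91 ± 0.18 on the log2 scale (± SE here and for all log2 changes; adjusted p = 0.00182 by edgeR). No stretch of 50 bases in its annotated transcripts occurred in a transcript of another gene.

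Klrk1 (Entrez 27007, chromosome 6, 129610323 to 129623903) encodes NKG2D, an activating receptor for stress-induced ligands on tumor cells, which activated CD8 T cells carry as well. It was the most counted member, with 708, 793 and 714 reads in the TP-18 tumors, against 163, 97 and 146 reads in the vehicle tumors. Its log2 change was 2.28 ± 0.19 (adjusted p = 0.00149 by edgeR), or 4.85-fold. The promoter windows of these 2 receptors, which stand for the activating arm, are shown as RefSeq gives them in GRCm38.p6 from 250 bases before to 50 bases after the annotated start. Capitals mark matches to 4 motifs described further on, and all matches in the windows printed here are to the RUNX motif.
Ncr1, chr7:4337465-4337764, + strand: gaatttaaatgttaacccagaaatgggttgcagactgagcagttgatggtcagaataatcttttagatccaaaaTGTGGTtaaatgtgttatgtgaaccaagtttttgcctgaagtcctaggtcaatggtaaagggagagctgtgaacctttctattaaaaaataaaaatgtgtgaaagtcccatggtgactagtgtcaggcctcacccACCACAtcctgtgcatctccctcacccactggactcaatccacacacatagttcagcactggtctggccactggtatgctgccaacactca
Klrk1, chr6:129623815-129624114, - strand: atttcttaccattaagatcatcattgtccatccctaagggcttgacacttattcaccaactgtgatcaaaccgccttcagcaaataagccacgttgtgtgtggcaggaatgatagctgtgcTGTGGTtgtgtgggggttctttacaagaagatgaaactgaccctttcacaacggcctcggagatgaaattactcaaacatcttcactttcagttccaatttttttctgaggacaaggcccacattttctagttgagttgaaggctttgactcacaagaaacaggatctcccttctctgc

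Klrb1c (Entrez 17059, chromosome 6, 128778485 to 128788641) encodes NKR-P1C, the activating receptor known as NK1.1 in C57BL/6 mice. It had 120, 121 and 100 reads in the TP-18 tumors, against 18, 16 and 20 reads in the vehicle tumors. The values within each group lay close together, and the log2 change of 2.48 ± 0.30 (adjusted p = 0.00374 by edgeR) was the largest of the 10. Of its exonic bases in the GENCODE M21 annotation, 13.9% are shared with the overlapping gene Gm44511, so reads there could be assigned to either or to neither.

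CD94 and the NKG2 proteins form heterodimers that bind Qa-1, a non-classical MHC class I molecule. Klrd1 (Entrez 16643, chromosome 6, 129588092 to 129598775), which encodes the shared CD94 chain, had 474, 439 and 464 reads in the TP-18 tumors, against 119, 64 and 113 reads in the vehicle tumors. The TP-18 tumors were nearly alike, with a coefficient of variation of 3.75%, against 29.3% in the vehicle tumors, where vehicle 2 was low. Klrd1 rose by a log2 change of 2.04 ± 0.23 (adjusted p = 0.00327 by edgeR).

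Klrc1 (Entrez 16641, chromosome 6, 129666015 to 129682852) encodes NKG2A, the inhibitory partner of CD94. It had 383, 388 and 352 reads in the TP-18 tumors, against 65, 70 and 88 reads in the vehicle tumors, and rose by 2.15 ± 0.21 on the log2 scale (adjusted p = 0.00182 by edgeR). Klrc2 (Entrez 16642, chromosome 6, 129649602 to 129660737), which encodes the activating partner NKG2C, was the least counted member. It had 27, 29 and 19 reads in the TP-18 tumors, against 6, 6 and 2 reads in the vehicle tumors, with a log2 change of 2.23 ± 0.51 (adjusted p = 0.0304 by edgeR). The inhibitory partner outnumbered the activating one in every tumor of both groups.

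Klrc1 and Klrc2 are close copies. Of the 50-base stretches in Klrc1 transcripts, 38.6% also occurred in Klrc2 or in Klrc3, and 16.3% of those in Klrc2 transcripts occurred in Klrc1 or Klrc3. At 100 bases the shares were 14.6% for Klrc1 and 7.09% for Klrc2. How reads that fit both genes were counted is not given in the sources used here, so the split between them is uncertain. Their promoter windows, shown for comparison of the 2 copies, had 50.3% identical positions in a global alignment. The range was 44.4% to 53.9% over all pairs of first listed windows, 1 per gene. Second windows, which some members have, were not aligned. The Klrc1 window lies wholly inside its gene span, at an internal annotated start, and that of Klrc2 does not.
Klrc1, chr6:129678924-129679223, - strand: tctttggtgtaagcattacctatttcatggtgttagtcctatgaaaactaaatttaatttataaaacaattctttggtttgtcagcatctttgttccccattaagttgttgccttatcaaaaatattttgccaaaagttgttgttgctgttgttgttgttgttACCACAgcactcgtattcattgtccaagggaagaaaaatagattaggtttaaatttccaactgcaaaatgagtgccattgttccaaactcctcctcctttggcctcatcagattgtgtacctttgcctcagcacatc
Klrc2, chr6:129660547-129660846, - strand: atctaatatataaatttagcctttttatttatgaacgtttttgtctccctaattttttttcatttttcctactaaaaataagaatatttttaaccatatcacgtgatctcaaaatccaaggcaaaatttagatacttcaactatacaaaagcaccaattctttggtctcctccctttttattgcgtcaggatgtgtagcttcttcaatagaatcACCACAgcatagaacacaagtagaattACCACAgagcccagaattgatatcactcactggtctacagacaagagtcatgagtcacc

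The Ly49 receptors are the mouse counterpart of human KIR, and those measured here, Ly49C and Ly49G, are inhibitory receptors for classical MHC class I molecules. Klra3 (Entrez 16634, chromosome 6, 130323289 to 130337626), which encodes Ly49C, had 168, 168 and 170 reads in the TP-18 tumors, against 48, 38 and 34 reads in the vehicle tumors. It was the most even member among TP-18 tumors, with a coefficient of variation of 2.71%, and it rose by 1.90 ± 0.24 on the log2 scale (adjusted p = 0.00412 by edgeR). Klra7 (Entrez 16638, chromosome 6, 130218605 to 130233322), which encodes Ly49G, had 82, 57 and 60 reads in the TP-18 tumors, against 14, 16 and 19 reads in the vehicle tumors. It rose by 1.83 ± 0.34 (adjusted p = 0.0170 by edgeR), with TP-18 1 the highest tumor.

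The Ly49 genes share sequence as well. At 50 bases, 20.7% of the stretches in Klra3 occurred in other genes, among them Klra9 and Klra10, and 12.3% of those in Klra7 occurred in the pseudogene Klra13-ps, while at 100 bases both shares were under 2%, at 1.78% and 1.83%. Klra8, which encodes the activating receptor Ly49H of C57BL/6 mice and is absent from the BALB/c genome, had 0, 0 and 1 reads in the TP-18 tumors and 0 in each vehicle tumor. The Klra3 window, shown because it holds none of the 4 motifs, reads as follows.
Klra3, chr6:130337577-130337876, - strand: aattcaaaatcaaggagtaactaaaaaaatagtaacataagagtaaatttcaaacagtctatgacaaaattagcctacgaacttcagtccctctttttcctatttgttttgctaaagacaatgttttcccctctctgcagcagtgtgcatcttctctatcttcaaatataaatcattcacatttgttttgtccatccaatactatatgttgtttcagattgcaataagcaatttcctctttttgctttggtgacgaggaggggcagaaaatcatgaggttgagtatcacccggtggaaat

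Klre1 (Entrez 243655, chromosome 6, 129559365 to 129585828) encodes a lectin that pairs with KLRI1 or KLRI2 on rodent NK cells. It had 135, 79 and 81 reads in the TP-18 tumors, against 12, 14 and 28 reads in the vehicle tumors, so each group had 1 high tumor, TP-18 1 and vehicle 3. The log2 change was 2.26 ± 0.45 (adjusted p = 0.0199 by edgeR). Its partner gene Klri1 had 76, 104 and 96 reads in the TP-18 tumors, against 12, 9 and 14 in the vehicle tumors, and rose by 2.79 ± 0.34 (adjusted p = 0.00400). Klri1 entered the test through its TP-18 libraries alone. The other partner, Klri2, had 84, 83 and 93 reads in the TP-18 tumors, against 31, 36 and 64 in the vehicle tumors, and its log2 change of 0.80 ± 0.36 did not pass (adjusted p = 0.180).

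Klrg1 (Entrez 50928, chromosome 6, 122270596 to 122282833) encodes an inhibitory receptor for cadherins that marks mature NK cells and effector T cells. It had 372, 298 and 216 reads in the TP-18 tumors, against 28, 87 and 136 reads in the vehicle tumors. The vehicle tumors differed among themselves more than for any other member, with a coefficient of variation of 67.2% against 28.4% in the TP-18 tumors. The log2 change of 1.62 ± 0.56 did not pass the test with all tumors (adjusted p = 0.106 by edgeR). It passed without vehicle 1 (adjusted p = 0.0492) and without vehicle 3 (adjusted p = 0.0478), with log2 changes of 1.21 and 2.21. By DESeq2 its adjusted p was 0.00829 and by limma-voom 0.0555.

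**Figure D2:**
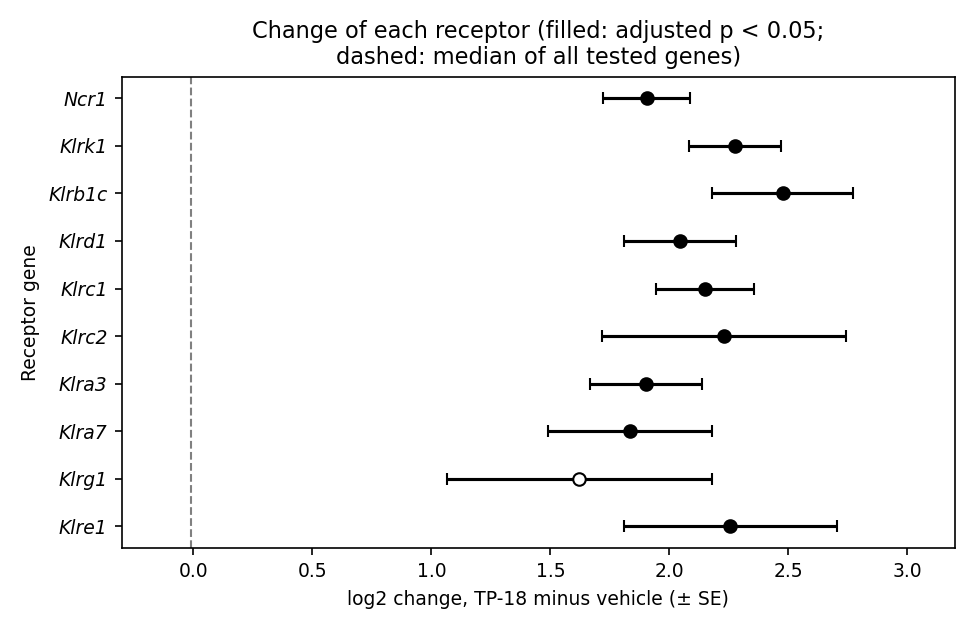
Log2 change of each receptor transcript, TP-18 minus vehicle, with its standard error (edgeR, 3 tumors per group); filled points passed an adjusted p of 0.05 and the dashed line marks the median of all tested genes at -0.01. The 10 changes lie between 1.62 for Klrg1 and 2.48 for Klrb1c, and Klrg1 is the open point.

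Ncr1, Klrk1, Klrb1c, Klrd1, Klrc1 and Klra3 were called with any 1 tumor left out, with a highest adjusted p of 0.0246 for Klra3. The calls on the 3 others were lost when some tumors were left out, while their log2 changes stayed at 1.91 to 2.47 for Klrc2, 1.95 to 2.77 for Klre1 and 1.64 to 2.00 for Klra7. Klrc2 passed only without vehicle 1 (adjusted p = 0.0466), and its adjusted p was 0.0650 to 0.0922 without any of the other 5. Klre1 was lost without TP-18 1 (0.0633), TP-18 3 (0.0555) or vehicle 2 (0.0849), and Klra7 without TP-18 1 (0.0607), TP-18 3 (0.0562) or vehicle 2 (0.0716), all adjusted p by edgeR. The number of members called was 6 to 10 over these fits, with the fewest in the fits that omit TP-18 1, TP-18 3 or vehicle 2. The share of all tested genes called higher was 4.08%, 3.51% and 2.69% without TP-18 1, 2 and 3, and 8.31%, 2.81% and 6.4% without vehicle 1, 2 and 3. Under the other settings that share was 7.06% with RLE scaling, 7.44% with upper-quartile scaling, 4.43% without a filter, 7.96% at 1 CPM in 3 libraries, 7.19% with non-robust moderation and 3.86% with the replicate number as a block. It was 10.3% by DESeq2, 7.25% by limma-voom, 9% and 9.1% by limma on FPKM with pseudocounts of 1 and 0.1, 3.25% on FPKM without a filter, and 11.3% at an adjusted p under 0.10.

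**Figure D3:**
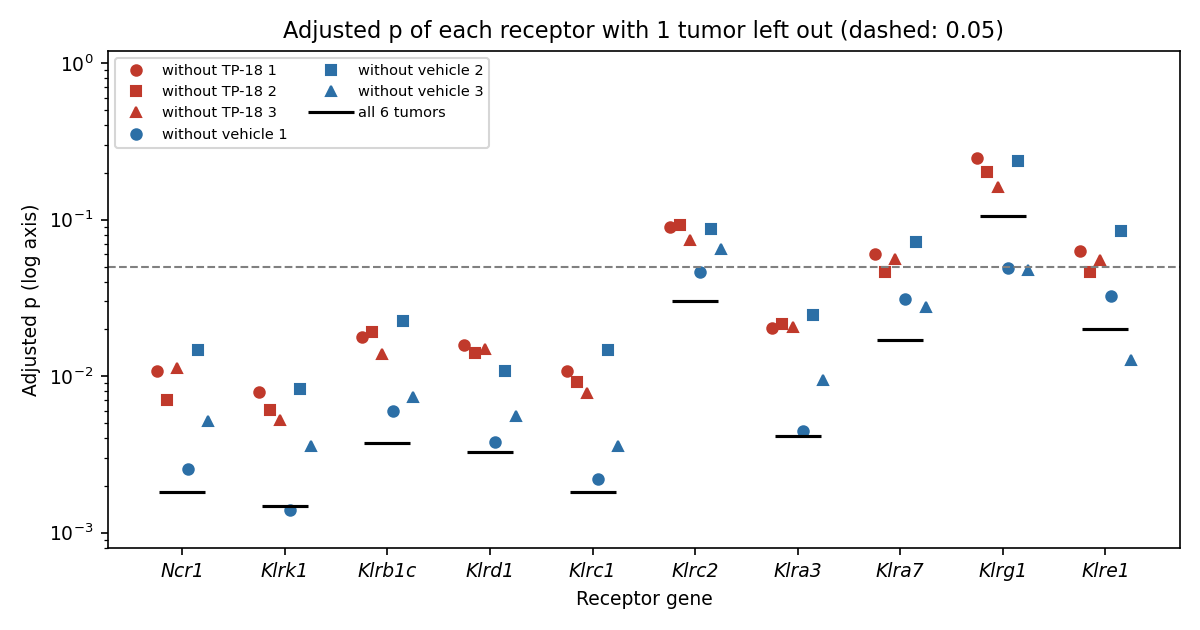
Adjusted p of each receptor in edgeR fits that leave out 1 tumor, on a log axis; red symbols leave out a TP-18 tumor, blue symbols a vehicle tumor, black bars use all 6 tumors, and the dashed line is 0.05. All symbols of Ncr1, Klrk1, Klrb1c, Klrd1, Klrc1 and Klra3 are under the line, and Klrg1 falls under it without vehicle 1 or vehicle 3.

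Levels of different genes were compared with the deposited FPKM, which divide by gene length. Klrd1 was the highest member in both groups, at 10.2 ± 0.38 FPKM in TP-18 tumors and 2.24 ± 0.68 FPKM in vehicle tumors. Klrc2 was the lowest in both, at 0.684 ± 0.155 FPKM in TP-18 tumors and 0.130 ± 0.064 FPKM in vehicle tumors. Among TP-18 tumors the order after Klrd1 was Ncr1, Klrg1, Klrk1, Klrc1, Klra3, Klra7, Klre1, Klrb1c and Klrc2. The range of Klrg1, from 4.34 to 7.68 FPKM, covered those of Ncr1, Klrk1 and Klrc1, and the range of Ncr1 overlapped both of the others, so the order of Klrg1 and Ncr1 among these is not resolved. Klre1 overlapped Klra7 and Klrb1c, which stood apart only by 1.303 against 1.301 FPKM. Among vehicle tumors the order was the same but for Klrg1, which stood ahead of Ncr1, and 6 of the 9 neighbouring pairs overlapped. The order rests on the gene lengths behind the deposited values, which differ from the exonic lengths in GENCODE M21: 3454 against 7183 bases for Klrk1, 1025 against 5812 for Klrc2 and 1985 against 3494 for Klre1. The places of Klrk1 and Klre1 therefore depend on the length used.

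As shares of the summed FPKM of the 10 genes, most members kept a similar part in both groups. Klrd1 took 23.57% to 25.88% in TP-18 tumors and 17.43% to 30.38% in vehicle tumors, and Klrc1 took 11.78% to 13.04% in TP-18 tumors and 10.27% to 11.79% in vehicle tumors. Klrg1 varied most, from 11.1% to 17.03% in TP-18 tumors and from 6.58% to 25.59% in vehicle tumors. Only for Klrb1c did the groups not overlap, at 2.66% to 3.14% in TP-18 tumors and 1.95% to 2.19% in vehicle tumors. These shares are a description and were not tested.

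Within each tumor, the reads of the 10 receptors were set against those of 10 T cell markers (the CD3 chains, CD4, CD8 chains and other T cell surface proteins). The ratio was 1.08, 0.915 and 0.921 in the TP-18 tumors, against 0.626, 1.40 and 1.56 in the vehicle tumors. The groups overlapped through vehicle 1 alone, which had 877 reads of the T cell markers, against 348 in vehicle 2 and 422 in vehicle 3. The difference in log2 ratio was -0.20 (exact permutation test, two-sided p = 0.800, where 0.1 is the smallest p that 3 against 3 allows). For Ncr1 alone over the same markers the ratio was 0.128, 0.0977 and 0.132 in the TP-18 tumors, against 0.0872, 0.234 and 0.176 in the vehicle tumors, a log2 difference of -0.37 (exact permutation p = 0.5). Of those markers 9 could be tested and 9 rose, 2 of them tested through the TP-18 libraries alone. Only 3 to 5 were called without any one of vehicle 2 or the TP-18 tumors. Cd3e, a chain of the T cell receptor complex, had 183, 230 and 186 reads in the TP-18 tumors, against 70, 34 and 22 in the vehicle tumors (log2 change 2.10 ± 0.39, adjusted p = 0.0166 by edgeR), and its call was lost without TP-18 2, TP-18 3 or vehicle 2.

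Set against Ptprc, which encodes the pan-leukocyte protein CD45, the receptor reads stood apart between groups. Ptprc itself was at 135.9, 155.3 and 139.8 CPM in the TP-18 tumors, against 53.68, 49.98 and 62.34 CPM in the vehicle tumors, so this general leukocyte transcript was higher in the same tumors as the receptors. The ratio was 0.555, 0.468 and 0.466 in the TP-18 tumors, against 0.291, 0.3 and 0.331 in the vehicle tumors, with no overlap. The log2 difference was 0.69, at the smallest p the design allows (exact permutation p = 0.1), and 0.5 after adjustment over the 5 ratios tested. Klrk1 over Ncr1 was 2.12, 2.80 and 1.95 in the TP-18 tumors, against 2.14, 1.2 and 1.97 in the vehicle tumors (exact permutation p = 0.5). Klrc1 over Klrc2 was 13.9, 13.2 and 18.1 in the TP-18 tumors, against 10.1, 10.8 and 35.4 in the vehicle tumors (exact permutation p = 1.0). The overlap of the groups in these ratios does not show that they were equal.

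**Figure D4:**
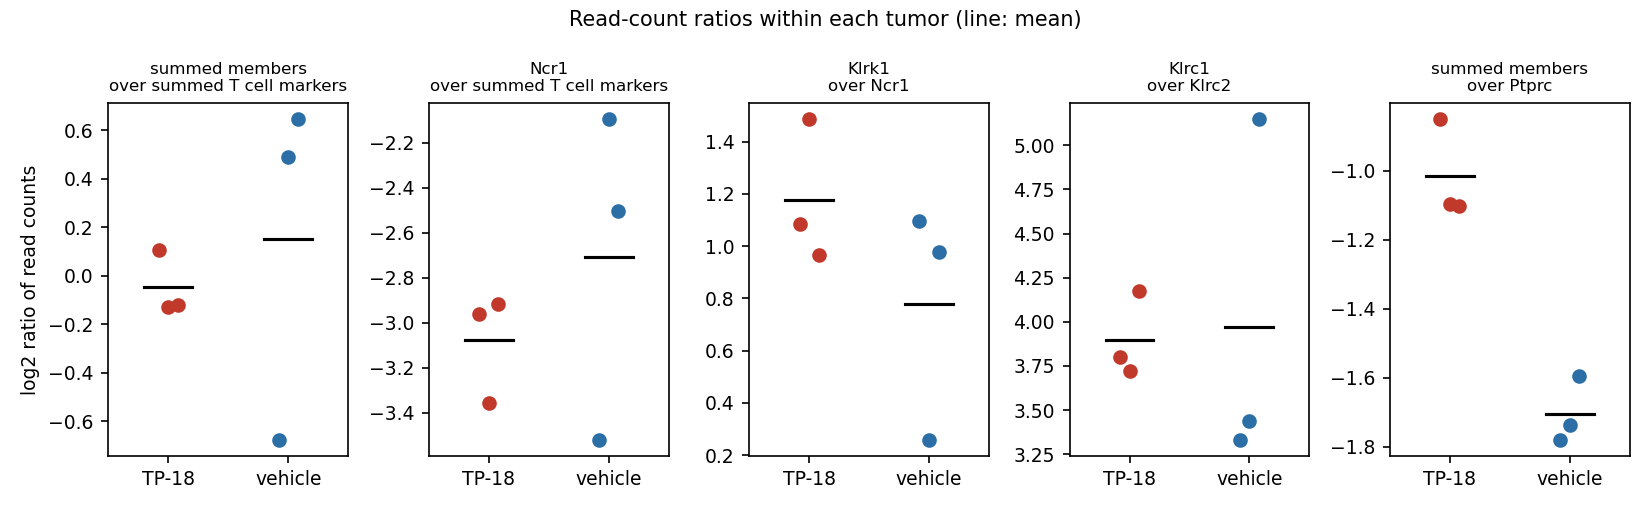
Log2 ratios of read counts within each tumor, for the summed receptors over T cell markers, Ncr1 over T cell markers, Klrk1 over Ncr1, Klrc1 over Klrc2 and the summed receptors over Ptprc; points are tumors, lines are group means, and each panel has its own axis. Only in the panel for Ptprc do the groups not overlap, with TP-18 tumors at -1.10 to -0.85 and vehicle tumors at -1.78 to -1.60.

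Other receptors of the NK gene complex changed unevenly. Of 18 listed genes 16 were in the table and 11 were tested, 6 of these through the TP-18 libraries alone, and 6 rose (median log2 change 1.35). Klri1, Klrc3 and Klrb1f are among those tested through the TP-18 libraries alone. Besides Klri1, Klrc3, which encodes another NKG2 protein, rose by 2.31 ± 0.34, and Klrb1f, which encodes an activating NKR-P1 receptor, rose by 2.75 ± 0.41, both in all fits with 1 tumor left out. Cd69, an early activation marker, rose by 1.35 ± 0.28, Klrb1b, which encodes an inhibitory NKR-P1 receptor, by 1.56 ± 0.37, and Klra2 by 0.59 ± 0.15. Without TP-18 1, TP-18 3 or vehicle 2, only 3 of the list were called; Cd69 was lost in those fits, Klrb1b passed only without vehicle 1 and Klra2 only without vehicle 3. Klrb1a measured 1.98 ± 0.24 CPM in TP-18 tumors and 1.81 ± 0.47 CPM in vehicle tumors (adjusted p = 0.824 by edgeR).

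Of 10 further NK cell receptors outside the complex 6 rose (median 1.57). Of the 10, 4 were tested through the TP-18 libraries alone, namely Cd226, Crtam, Cd27 and Cd160. Cd226, which encodes the activating receptor DNAM-1, had 163, 202 and 189 reads in the TP-18 tumors, against 16, 9 and 26 in the vehicle tumors, and rose by 3.25 ± 0.39 (adjusted p = 0.00394 by edgeR). Cd96, which binds the same ligand as DNAM-1, rose by 1.85 ± 0.27, Crtam by 3.52 ± 0.43, Cd27 by 2.55 ± 0.42 and Cd244a, which encodes 2B4, by 1.30 ± 0.29. The list had 3 calls without TP-18 3 and 3 without vehicle 2; Cd27 was lost in both fits, and Cd244a in those and without TP-18 1 or TP-18 2. Tigit, an inhibitory competitor of DNAM-1, measured 10.6 ± 0.87 CPM in TP-18 tumors and 8.65 ± 1.87 CPM in vehicle tumors (adjusted p = 0.321). Il18rap, a receptor chain for interleukin 18 that is on this list and among the NK cell markers, measured 149 ± 8.35 CPM in TP-18 tumors and 143 ± 11.04 CPM in vehicle tumors (adjusted p = 0.710). Its level of 31.3 FPKM in TP-18 tumors and 27.3 FPKM in vehicle tumors was above that of all 10 receptors.

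The receptors signal through adaptor chains, and 9 of 14 adaptor and signalling genes rose (median 1.16), 1 of the 14 being tested through the TP-18 libraries alone. The list had 6 calls without TP-18 2 and 6 without TP-18 3, with Tyrobp and Fcer1g among the losses in both fits. Tyrobp, which encodes DAP12, the partner of NKG2C and activating Ly49 receptors, had 3001, 3935 and 3637 reads in the TP-18 tumors, against 1960, 1303 and 1921 in the vehicle tumors, and rose by 0.86 ± 0.17 (adjusted p = 0.0224 by edgeR). Its call was lost without TP-18 2 or TP-18 3. Hcst, which encodes DAP10, the partner of NKG2D, had 70, 90 and 38 reads in the TP-18 tumors, against 35, 10 and 27 in the vehicle tumors, with a log2 change of 1.30 ± 0.52 (adjusted p = 0.136). Cd247, the zeta chain used by NKp46 and by the T cell receptor, rose by 2.48 ± 0.27, Zap70 by 1.86 ± 0.21, and Vav1 by 1.24 ± 0.16. Ptpn6, which encodes SHP-1, the phosphatase recruited by inhibitory receptors, rose by 1.09 ± 0.14, and Inpp5d, which encodes SHIP-1, by 0.93 ± 0.13. Tyrobp and Fcer1g are also carried by myeloid cells.

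Among ligands of NK cell receptors, 21 were listed, 16 were in the table and 14 were tested, of which 3 rose and 1 fell (median 0.25), where 5.26% of all tested genes were called lower. H2-T23, which encodes the Qa-1 molecule read by CD94 and NKG2A, had 5167, 7390 and 4965 reads in the TP-18 tumors, against 1758, 1672 and 2159 in the vehicle tumors, and rose by 1.47 ± 0.20 (adjusted p = 0.00845 by edgeR). Cd48, the ligand of 2B4, rose by 1.35 ± 0.23, and Clec2i, a lectin ligand of NKR-P1 receptors, by 2.03 ± 0.44. Pvr, the ligand of DNAM-1, TIGIT and CD96, measured 125 ± 15.5 CPM in TP-18 tumors and 209 ± 45.6 CPM in vehicle tumors, and fell by 0.74 ± 0.16 on the log2 scale (adjusted p = 0.0287). The call on Pvr was lost without vehicle 2 or any of the TP-18 tumors, and that on Clec2i without TP-18 2, TP-18 3 or vehicle 2. The NKG2D ligand Ulbp1 measured 27.8 ± 3.02 CPM in TP-18 tumors and 34.8 ± 7.83 CPM in vehicle tumors (adjusted p = 0.240), and H60b 0.674 ± 0.038 CPM in TP-18 tumors and 0.689 ± 0.111 CPM in vehicle tumors (adjusted p = 0.961). H2-K1 and H2-D1, the classical ligands of Ly49 receptors, had adjusted p-values of 0.114 and 0.241.

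Of 11 tested transcriptional regulators of NK cells 4 rose (median 0.55). Eomes, a T-box factor of mature NK cells and of CD8 T cells, had 357, 243 and 251 reads in the TP-18 tumors, against 81, 99 and 84 in the vehicle tumors, and rose by 1.51 ± 0.23 (adjusted p = 0.00862 by edgeR). Tbx21, which encodes T-bet, rose by 2.54 ± 0.37, Ikzf3 by 2.51 ± 0.33 and Irf8 by 1.26 ± 0.13, and all 4 were called with any 1 tumor left out. Nfil3, which is required for NK cell development, measured 29.3 ± 8.07 CPM in TP-18 tumors and 44.2 ± 18.3 CPM in vehicle tumors (adjusted p = 0.316). Runx3 had a log2 change of 0.13 ± 0.10 and Ets1 of -0.04 ± 0.11 (adjusted p = 0.417 and 0.864).

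Genes for cytokine inputs and homing had 11 of 14 tested members called higher (median 1.92), 3 of the 14 being tested through the TP-18 libraries alone. Il12b and Xcl1 are among these 3. The list had 9 calls without TP-18 3 and 9 without vehicle 2, the losses being among called genes not named here. Il2rb, the receptor chain for interleukins 2 and 15 that NK cells need to survive, rose by 1.54 ± 0.15, Il18r1 by 2.97 ± 0.27, Cxcr6 by 2.77 ± 0.33 and the chemokine gene Xcl1 by 3.37 ± 0.33. Il12b, a subunit of interleukin 12, rose by 3.01 ± 0.39. Il15, the main survival cytokine of NK cells, had 684, 680 and 614 reads in the TP-18 tumors, against 344, 428 and 484 in the vehicle tumors, with a log2 change of 0.47 ± 0.17 that did not pass (adjusted p = 0.106 by edgeR), while Il15ra, which presents it, rose by 1.40 ± 0.25 (adjusted p = 0.0138). These lists were chosen with earlier results of these data known, so their counts are descriptive.

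**Figure D5:**
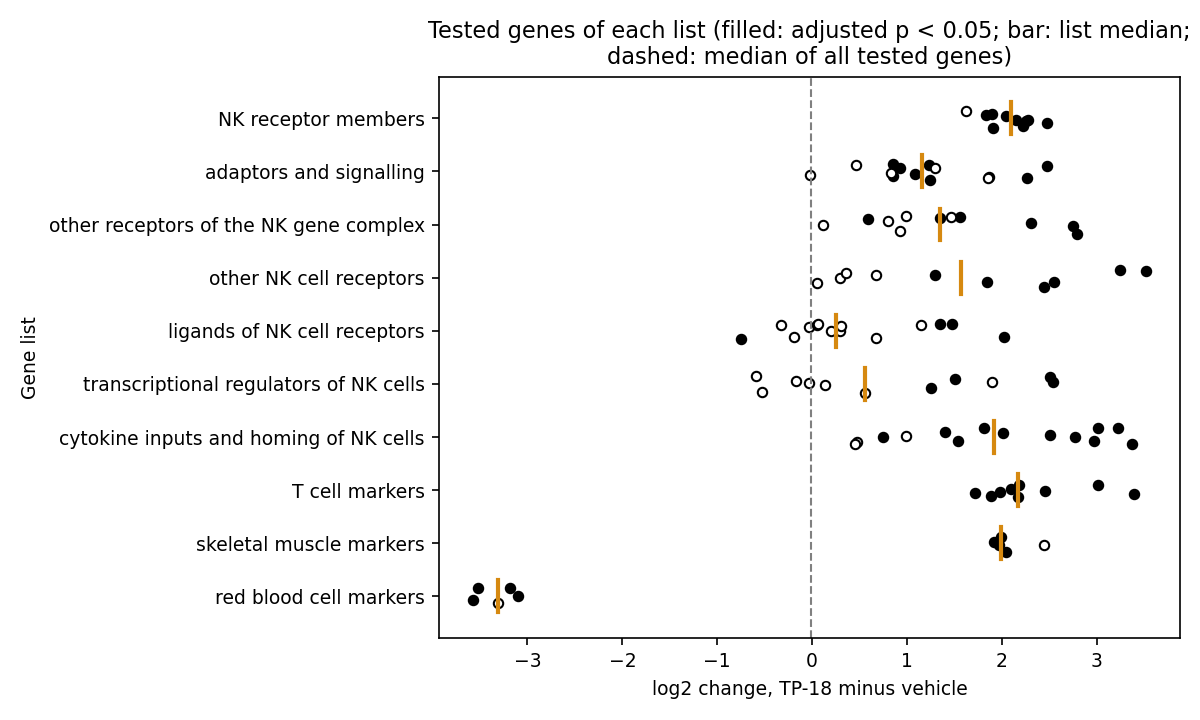
Log2 change, TP-18 minus vehicle, of every tested gene in each list, with filled points for genes that passed an adjusted p of 0.05 and an orange bar for the list median; the dashed line is the median of all tested genes at -0.01. The receptor family clusters between 1.62 and 2.48, ligands centre on 0.25, and red blood cell markers lie near -3.31.

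Transcripts of other tissues moved with the groups. Summed skeletal muscle markers were 44.6 to 87.3 CPM in TP-18 tumors and 7.93 to 21.3 CPM in vehicle tumors, and 4 of 5 were called higher, with 2 left without TP-18 1, TP-18 3 or vehicle 2. Summed red blood cell markers were 14.8 to 33.9 CPM in TP-18 tumors and 66.2, 183 and 395 CPM in vehicle 1, 2 and 3, and 4 of 5 were called lower by edgeR, calls that were lost without vehicle 2 or any of the TP-18 tumors. Klrg1, Klrc1, Klre1 and Klra7 had their lowest and highest vehicle values in the same tumors, vehicle 1 and vehicle 3. The other members did not, and Klra3 ran the opposite way. The part of these tissues in the receptor differences was not tested. Of 7 NK cell markers other than the members 6 were tested, 1 of them (Cd160) through the TP-18 libraries alone, and 3 rose. Gzma, a granzyme of NK and T cells, rose by 2.12 ± 0.25, Eomes as given above, and Cd160 by 2.44 ± 0.65 (adjusted p = 0.0465 by edgeR), a call lost without vehicle 2 or any of the TP-18 tumors. Itga2 had a log2 change of 0.68 ± 0.36 that did not pass (adjusted p = 0.240 by edgeR), and its groups overlapped. Klri2 and Il18rap, given above, did not pass either. The summed level of the 7 was 214 to 240 CPM in TP-18 tumors and 153 to 178 CPM in vehicle tumors, most of it Il18rap. S1pr5, a homing receptor of mature NK cells, had at most 2 reads in any tumor. Among 6 markers of other innate lymphoid cells 4 were tested and 1 rose, Itga1 by 1.04 ± 0.23, a call lost without vehicle 2 or any of the TP-18 tumors, and Il23r had at most 2 reads in any tumor. The summed level of those 6 was 290 to 434 CPM in TP-18 tumors and 322 to 578 CPM in vehicle tumors, most of it Il1rl1, at 310.3 ± 59.2 CPM in TP-18 tumors and 410.9 ± 130.3 CPM in vehicle tumors (adjusted p = 0.316). The other tested markers, Il7r and Gata3, had log2 changes of 1.70 ± 0.63 and 0.96 ± 0.35 that did not pass (adjusted p = 0.141 and 0.112), opposite in sign to that of the sum.

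The promoter table of RefSeq held 12 windows for 8 of the 10 members, with a second annotated start for Ncr1, Klrc2, Klre1 and Klra7. The window listed first for each gene is the one counted, and printed above for 5 genes. It is not always at the outermost start. The window of Klrc1, both windows of Klre1 and the first of Klra7 lie wholly inside the gene spans, at internal annotated starts. Letters were searched on both strands for TGTGGT (RUNX factors), AGGTGT (T-box factors), AGGAAG (ETS factors) and TTCNNNGAA (STAT factors), and matches to different motifs did not overlap. The RUNX letters occurred in 6 of the 8 first windows, those of Ncr1, Klrk1, Klrb1c, Klrc1, Klrc2 and Klre1, and in 16.8% of all 32851 windows of 300 bases. The ETS letters occurred in 2 of the 8, Klrb1c and Klra7, and in 35.4% of all windows. The STAT letters occurred in 1, Klra7, and in 8.3% of all windows, and the T-box letters in 0 of the 8 and in 13.7% of all. Over all 12 windows the RUNX letters occurred in 8, the ETS letters in 3 and the STAT letters in 1. The second window of Klre1 held an ETS match and no RUNX match, and that of Klra7 held neither ETS nor STAT letters. Counted from the annotated start of the first listed window, the RUNX matches began at -176 and -41 in Ncr1 and at -129 in Klrk1. They began at -87 in Klrc1, from its internal start, and at -36 and -9 in Klrc2. A match is a description of letters and not a binding site.

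Across the 6 libraries, the 5 tested protein-coding genes whose log2 CPM followed the mean of the receptors most closely, out of 13141 compared, were Ube4a, Gm4841, Tnfrsf14, Atp8b4 and F830016B08Rik, with Pearson correlations from 0.995 to 0.999. The 6 points form 2 groups of 3, so this likeness is largely that between groups and gets no p. It says nothing of size: Ube4a, which encodes a ubiquitin ligase, rose by 0.31 ± 0.07 on the log2 scale (adjusted p = 0.0326 by edgeR), while Gm4841 rose by 2.76 ± 0.16 (adjusted p = 0.00082). Tnfrsf14, which encodes the receptor HVEM, rose by 1.43 ± 0.12, to 17.99 ± 0.65 CPM in TP-18 tumors against 6.66 ± 0.49 CPM in vehicle tumors. Among the members, the correlation with the mean of the others was lowest for Klrg1 (0.81) and Klrc2 (0.86) and lay between 0.95 and 1.0 for the other 8.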

How the data were processed

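RNA of 6 tumors was isolated by TRIzol and prepared with the VAHTS Universal V6 kit, per the labels' protocols. The submitters' processing notes name fastp, HISAT2, HTSeq and GRCm38; no source used here gives versions, strand handling or the treatment of reads with several matches. Raw counts per gene, without normalization, were deposited by the authors. The deposited FPKM were made by the authors from count, gene length and library total, which held within 0.01 bases for 12982 of 12982 genes with at least 10 counts in every library.

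Groups came from the treatment label. In R 4.3.3, edgeR 4.0.16 kept 14189 genes (filterByExpr, minimum count 10, minimum total 15), scaled them by TMM and tested TP-18 minus vehicle with the robust quasi-likelihood F test (prior count 0.125, two-sided), called at an adjusted p under 0.05. SE derive from F. Ratios used summed counts plus 0.5. Alternatives used limma 3.58.1, DESeq2 1.42.0, other scalings and filters, and 1 tumor left out. The procedure was tested on simulated data. Members and lists were chosen with earlier results of these data known. Named genes are the members, up to 5 genes of each list by smallest p with 6 fixed additions, and the 5 most alike genes; Klra2, Klra8, Klrb1a, Tigit, Il18rap, Fcer1g, Ulbp1, H60b, H2-K1, H2-D1, Nfil3, Runx3, Ets1, Il15ra, S1pr5, Il23r, Krt8, Epcam, Vil1 and Cdx2 were added after their values were seen. Sequences and positions are from RefSeq for GRCm38.p6, and transcripts from GENCODE M21. Errors cover spread and counting, not PCR copies.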

Additional observations from a re-analysis of the deposited data

How the results depend on the processing

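Direction was the same for all 10 receptors in all 18 alternatives that tested them, and Ncr1, Klrk1, Klrb1c, Klrd1, Klrc1 and Klra3 passed in each. Over all member fits, 161 kept their side of the threshold, 14 lost a call and 4 gained one; Klrc2 was not tested at 1 CPM in 3 libraries. With the replicate number as a block, Klrc2, Klre1 and Klra7 had adjusted p of 0.0580, 0.0569 and 0.0582, 6 members were called, and calls over all genes were 547 higher and 231 lower, against 1006 and 747 without it. The labels do not pair the tumors: deviations of equal numbers correlated at 0.23, -0.083 and -0.033, and only TP-18 1 correlated best with its own number. Genes called lower were 1240 by DESeq2, 207 and 219 by limma on log2(FPKM + 1) and log2(FPKM + 0.1), and 95 on FPKM without a filter, and Pvr, the ligand called lower, was lost in these 3 limma fits (0 supporting genes called lower). At an adjusted p under 0.10, 1609 genes were higher and 1413 lower.

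With 1 tumor left out, calls ran from 388 to 1216 higher and from 111 to 1023 lower, supporting genes from 27 to 41 higher and 0 to 1 lower, and members from 6 to 10. The log2 ratio difference of receptors to T cell markers ran from -0.615 without vehicle 1 to 0.045 without vehicle 3, where the sign turned. That of Klrc1 to Klrc2 ran from -0.393 to 0.513. Its sign turned without TP-18 2 (0.016) or vehicle 3 and at a prior count of 2 (0.244). Neither ratio was called. The difference for Ncr1 over T cell markers ran from -0.778 to -0.066. The ratio to Ptprc ran from 0.606 to 0.743. The cause of these changes was not tested. Klrc2, at 2 to 6 reads per vehicle tumor, is limited by depth, and the split of reads among Klrc and Klra copies by strain and mapping.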
